A study of Drosophila melanogaster with 4 samples.

Results

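The proteasome genes of Drosophila melanogaster were compared between ovarian tumor tissue and control ovary tissue. Members were all listed genes whose FlyBase symbol starts with Prosalpha, Prosbeta, Rpn or Rpt followed by a number, which gave 48 of the 17773 genes in the files. RNA came from dissected ovaries of adult females kept for 20 days at 29 °C. Each genotype had 2 libraries, described by the submitters as biological replicates. The control genotype was tj-GAL4, tubulinGal80ts, and the tumor genotype carried the same driver and repressor with UAS-aPKCΔN and UAS-RasV12 added. The driver tj-GAL4 acts in follicle cells, the somatic epithelium of the ovary, and the temperature-sensitive Gal80 repressor, which both genotypes carry, is inactive at the temperature used. The tumor therefore expressed an atypical protein kinase C without its N-terminal part and an oncogenic Ras in those cells, next to germline and other cells that the driver does not address. Control tissue was limited to follicles before yolk uptake, whereas tumors were taken as they were, and the tissue of both was then broken up with a protease from bacteria and passed through filters to favour epithelial follicle cells.

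The proteasome is the protease complex that degrades proteins tagged with ubiquitin. Its core particle is a barrel of alpha subunits, which form the gated entry rings, and beta subunits, which form the inner rings and hold the peptidase sites. The regulatory particle caps the barrel, with a base of Rpt ATPases and large Rpn scaffold subunits that unfold substrates and a lid that includes the deubiquitinase Rpn11. Drosophila also has variant paralogs of several subunits, named with a T or an R after the subunit number, many of which are known from the testis. By symbol, the 48 members were 7 alpha and 7 beta subunits, 10 base subunits (Rpt1 to Rpt6 with Rpn1, Rpn2, Rpn10 and Rpn13), 8 lid subunits and 16 variant paralogs.

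Estimated counts summed to 41248098 and 50971937 for the control libraries and to 47512735 and 42739528 for the tumor libraries. For 99.3% of the annotated genes the length of the quantified target equals the whole gene span plus 2000 bases on each side, so that neighbouring targets overlap and share reads. Proteasome genes are short, with a median span of 1390 bases in the 32 standard subunits, and for 30 of these (93.8%) every exon base also lies inside the target of another gene. The same was true of 66.9% of all annotated genes. The exceptions were Rpn1 and Rpn2, with 17.3% and 22.8% of their exon sequence to themselves. Each gene is therefore given by its own estimated count and by a locus sum, which adds up all targets that contain any exon of the gene. Whether groups overlap is judged on CPM, the count scaled by effective library size. A locus sum keeps the reads of the gene wherever they were listed, but also holds reads of its neighbours.

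Of the 32 standard subunits, 10 came to 0 in every library once estimated counts were rounded to whole numbers, although cells cannot do without them. Of these, 8 were exactly 0 in all 4 libraries, and the highest unrounded value among the others, Prosbeta5 and Prosbeta6, was 0.481 counts. A gene is called listed at 0 here on the rounded counts. They were Prosalpha1, Prosalpha2 and Prosalpha6 of the alpha rings, Prosbeta5 and Prosbeta6 of the beta rings, Rpt2, Rpn10 and Rpn13 of the base, and Rpn6 and Rpn12 of the lid. Rpn11, the deubiquitinase of the lid, was listed at 0 in both controls and tumor 1 and at 7 counts in tumor 2. All 32 had a locus sum of at least 1000 counts in every library. Among the 8929 protein-coding genes with such a locus sum, 19.1% were listed at 0 in every library, against 31.2% of the standard subunits. A value of 0 for these subunits in the files cannot be read as absent expression, since all their exon bases lie inside targets of other genes. Whether their reads were listed there was not tested.

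**Figure D1:**
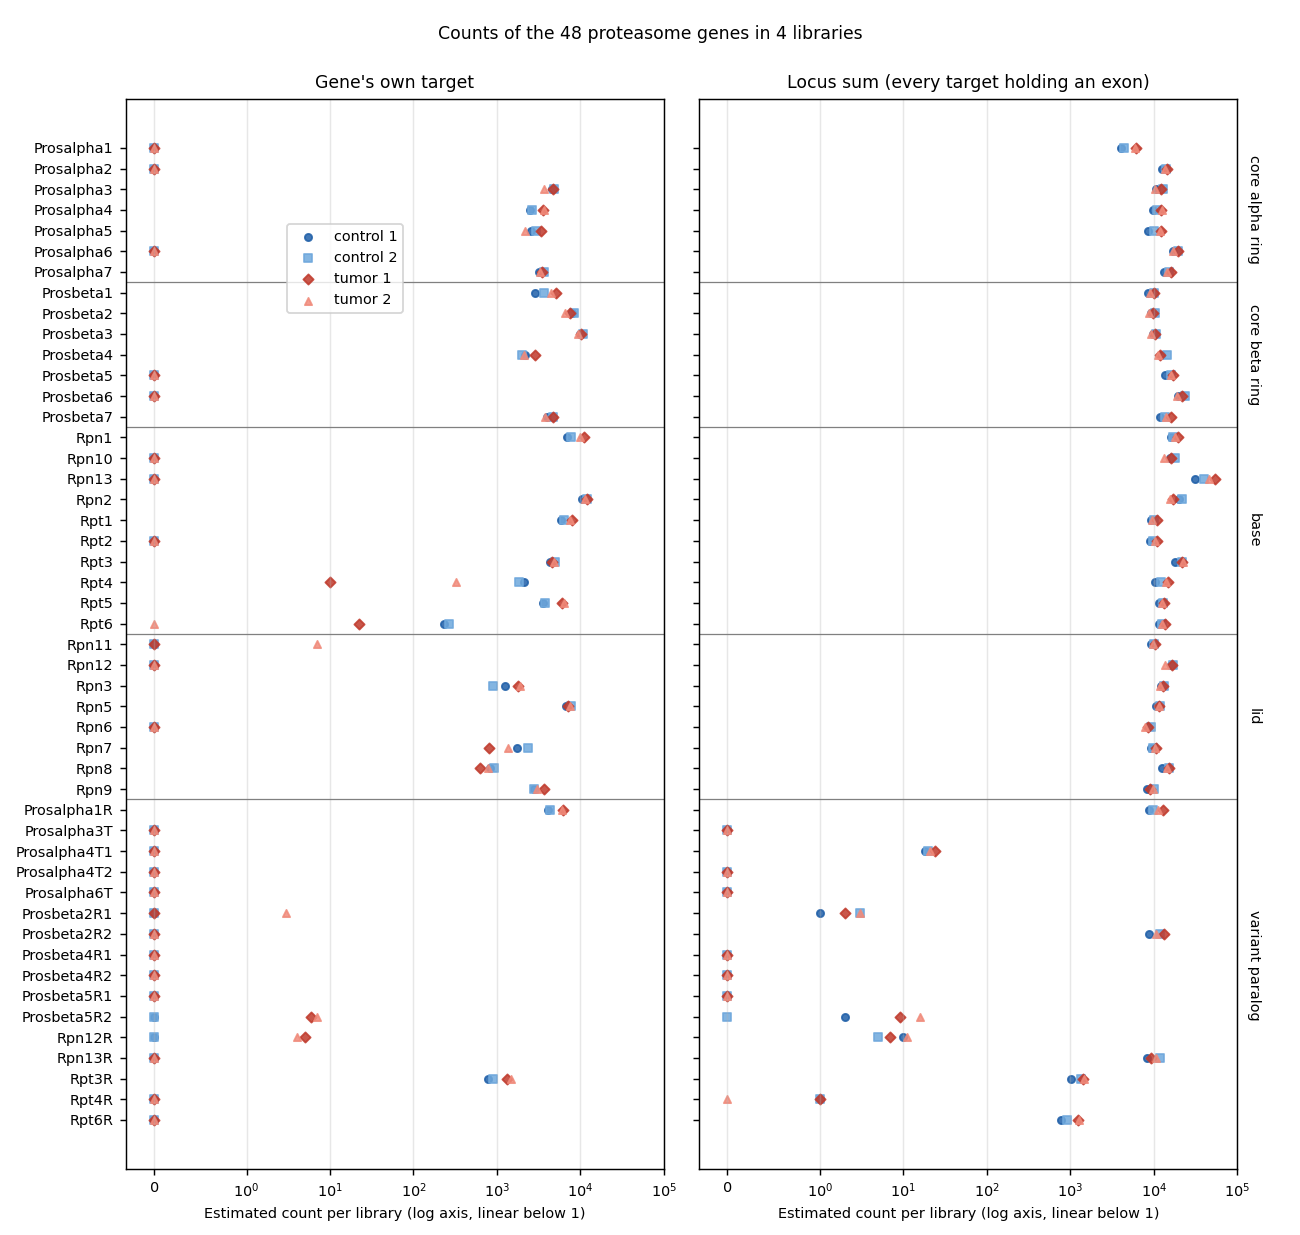
Estimated counts of the 48 proteasome genes in the 2 control and 2 tumor libraries, on a log axis that is linear below 1. The left panel plots the count listed under each gene's own target and the right panel the locus sum. Each standard subunit has a locus sum of at least 1000 counts in every library, including the 10 that are listed at 0 in the left panel, while 6 variant paralogs are at 0 in both panels.

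At the Rpn6 locus (chromosome 2R, 14750166 to 14752910, minus strand, BDGP6.54 annotation) the counts lay under other genes. Rpn6, a scaffold subunit of the lid, was at 0 in all 4 libraries, while the target of the antimicrobial peptide gene AttB held 5977 and 6761 counts in the controls against 7218 and 6200 in the tumors. The locus sum of Rpn6 was 8431 and 9278 in the controls against 8603 and 7825 in the tumors. Rpn12, another lid subunit, shared its exons with the target of the respiratory chain gene UQCR-C2, which held 15855 and 17110 counts in control, then 16424 and 13798 in tumor, the whole of the Rpn12 locus sum. Rpn10, a ubiquitin receptor of the base, shared its exons with the target of COX8, which held 15819 and 17698 counts in the controls against 15846 and 13108 in the tumors. How many of these counts came from the proteasome gene cannot be read from such targets.

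The comparison asks whether proteasome genes differed between tumor and control. In own counts, 23 of the 48 members passed the filter on low counts and were tested, 21 standard subunits and 2 variant paralogs. Of these 23, 6 rose (26.1%) and none fell past an edgeR adjusted p of 0.05, with a median log2 fold change of -0.05, against 0.02 over all 9402 genes tested. Over all genes tested, 23.4% rose and 21.2% fell, so the share that rose is close to the background. At an unadjusted edgeR p under 0.05, 7 of the 23 members were higher and 3 lower, against 2634 and 2435 of all 9402 genes tested. DESeq2 called 7 higher, with Rpt1 in addition, and 3 lower (Prosbeta2, Rpn7 and Rpt6), and limma-voom called 6 higher and 3 lower (Rpn7, Rpt4 and Rpt6). When libraries were scaled to 64 ribosomal protein genes, the median of all tested genes moved to 0.66 and that of the members to 0.59, and 18 members were called higher. Tumor lay above control in both libraries for 8 members and below for 8, where 40.8% and 38.8% of all tested genes did so. Summed over the 32 standard subunits, the level was 2140 and 1950 CPM in control and 2080 and 2070 CPM in tumor, so that the groups overlapped.

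Of the 4 tested alpha subunits 1 rose (25%) and none fell, where 23.4% and 21.2% of all genes tested did. Prosalpha4 (X, 16276270 to 16277587, plus strand) had 2460 and 2595 counts in the controls against 3603 and 3654 in the tumors. Both tumor libraries lay above both controls, with a log2 fold change of 0.45 ± 0.12 (± gives the fitted SE, from 2 libraries in each group; edgeR's adjusted p = 0.042). Its locus sum had a log2 fold change of 0.18 ± 0.08 (edgeR's adjusted p = 0.12). At the other end Prosalpha3 had 4523 and 4849 counts against 4632 and 3674, a log2 fold change of -0.25 ± 0.12 (edgeR's adjusted p = 0.16). Prosalpha5 and Prosalpha7 lay between them, at -0.06 ± 0.21 and -0.11 ± 0.09, neither of them past the threshold.

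Of the 5 tested beta subunits 1 rose (20%) and none fell, where 23.4% and 21.2% of all genes tested did. Prosbeta1 (2R, 16013805 to 16014787, minus strand), which carries the caspase-like peptidase site, had 2890 and 3658 counts in the controls against 5036 and 4447 in the tumors. The groups did not overlap, and the log2 fold change was 0.47 ± 0.08 (edgeR's adjusted p = 0.015). The locus sum of Prosbeta1, however, was 8556 and 9952 in the controls against 9988 and 9023 in the tumors, a log2 fold change of -0.03 ± 0.06 (edgeR's adjusted p = 0.69). Prosbeta2, which carries the trypsin-like site, had 7828 and 8396 counts against 7440 and 6602, a log2 fold change of -0.29 ± 0.09 (edgeR's adjusted p = 0.069). Prosbeta3 was the member whose own target held the whole locus sum in every library, with 9878 and 10673 counts in the controls against 10237 and 9295 in the tumors. On CPM both tumor libraries lay below both controls, but its log2 fold change of -0.15 ± 0.09 missed the threshold (edgeR's adjusted p = 0.24, 95% interval -0.40 to 0.10). Prosbeta7 was the middle member of the ring at -0.11 ± 0.10, and Prosbeta4 was at 0.15 ± 0.21.

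Of the 7 tested base subunits 2 rose (28.6%) and none fell, where 23.4% and 21.2% of all genes tested did. The ATPase gene Rpt5 (3R, 23752876 to 23754623, plus strand) had 3592 and 3761 counts in the controls against 5991 and 6276 in the tumors. The tumor libraries lay far above both controls, with a log2 fold change of 0.66 ± 0.11 (edgeR's adjusted p = 0.014). Its locus sum was 11606 and 12969 against 13079 and 12518, a log2 fold change of -0.01 ± 0.07 (edgeR's adjusted p = 0.88). Rpn1 (3L, 19915051 to 19918160, plus strand), a scaffold that docks ubiquitin receptors, had 6949 and 7665 counts against 11035 and 9760, again without overlap. Its log2 fold change was 0.43 ± 0.09 (edgeR's adjusted p = 0.021), and that of its locus sum 0.09 ± 0.09 (edgeR's adjusted p = 0.42). Rpn2, the other large scaffold and the middle member of the base, had 10447 and 12127 counts against 12003 and 11216, a log2 fold change of -0.03 ± 0.07. Rpt1 and Rpt3 were at 0.27 ± 0.08 (edgeR's adjusted p = 0.061) and -0.06 ± 0.09.

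The lowest own values of the base were those of Rpt4 and Rpt6. Rpt4 (X, 6289470 to 6291245, minus strand) had 2103 and 1813 counts in the controls against 10 and 325 in the tumors, and Rpt6 (X, 21316052 to 21317663, plus strand) had 233 and 268 in the controls against 22 and 0 in the tumors. In both genes every tumor library lay below every control. The log2 fold changes of -3.59 ± 1.51 and -4.60 ± 1.65 missed the threshold (edgeR's adjusted p = 0.12 and 0.085), and both passed it when either tumor library was left out. Their locus sums did not show such a decrease. That of Rpt4 was 10298 and 12273 against 14977 and 13882 and rose with a log2 fold change of 0.29 ± 0.06 (edgeR's adjusted p = 0.014). That of Rpt6 was 11476 and 12449 against 13478 and 12707, at 0.05 ± 0.08 (edgeR's adjusted p = 0.59).

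None of the 5 tested lid subunits rose or fell by edgeR, where 23.4% and 21.2% of all genes tested did. Rpn7 had 1722 and 2381 counts in the controls against 813 and 1345 in the tumors, a log2 fold change of -0.97 ± 0.32 (edgeR's adjusted p = 0.068). Rpn3 lay at the other end, with 1254 and 885 counts against 1779 and 1870 and a log2 fold change of 0.67 ± 0.30 (edgeR's adjusted p = 0.14). In both the groups did not overlap, while their locus sums were at 0.06 ± 0.08 and -0.11 ± 0.08. Rpn5, the middle member, had 6618 and 7670 counts against 7010 and 7436 (-0.05 ± 0.09), Rpn8 was at -0.38 ± 0.22 and Rpn9 at 0.18 ± 0.14.

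The calls of Prosalpha4 and Rpt3R ended with upper-quartile factors and without a filter on low counts, each of which left 4 members higher. The calls on own counts rested on all 4 libraries. Without control 2 no member was called higher, without control 1 or tumor 1 only Rpt5 was, and without tumor 2 only Prosbeta1 was. The calls of Prosalpha4, Rpn1, Prosalpha1R and Rpt3R ended without any one of the 4 libraries, with an edgeR adjusted p of up to 0.17.

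**Figure D2:**
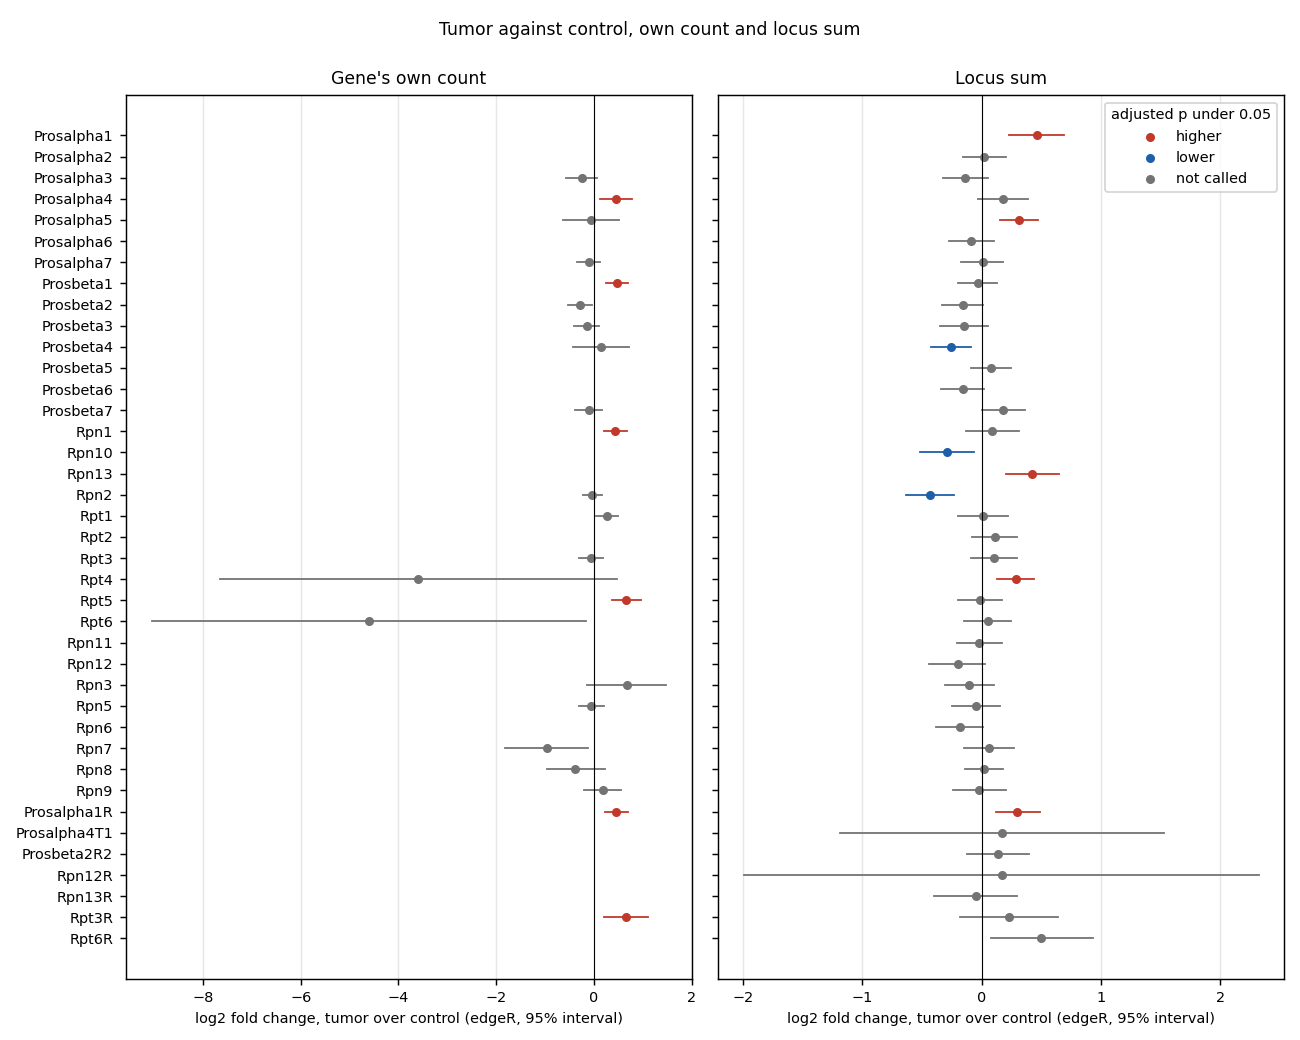
Log2 fold change of tumor over control with its 95% interval (edgeR) for own counts on the left and locus sums on the right, on axes of different range. Own counts reach from -4.60 for Rpt6 to 0.67 for Rpn3, whereas the locus sums of the 32 standard subunits lie between -0.43 and 0.46. Red and blue mark an adjusted p under 0.05, and under scaling to ribosomal protein genes the 3 blue locus sums turn positive.

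Locus sums could be tested for all 32 standard subunits and for 7 variant paralogs. Of these 39, 5 rose (12.8%) and 3 fell (7.69%), where 27.9% and 27.4% of all 14670 locus sums tested did. Tumor lay above control in both libraries for 13 of them and below for 11, against 40.8% and 40.7% of all locus sums. The median log2 fold change was 0.02 for the members and 0.00 for all. All 32 standard subunits were within 0.5 of no change on the log2 scale, as were 66.2% of the 8929 protein-coding genes with locus sums of at least 1000 counts. The 95% interval of each of the 32 stayed within 1 on that scale, as did 59.4% of all locus sums tested. For the 10 subunits listed at 0, these sums are almost wholly counts listed under other genes. By class the medians were 0.02 for the alpha rings, -0.15 for the beta rings, 0.07 for the base and -0.03 for the lid, and the classes were not tested against each other. These medians are relative to the scaling of the libraries. Scaling to the ribosomal protein genes raised the median of all locus sums to 0.64 and that of the members to 0.66. Upper-quartile factors set them at -0.11 and -0.09. A change of scaling shifts nearly all log2 fold changes alike, so this joint move says nothing about the members themselves.

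The standard subunits whose locus sums passed the threshold were Prosalpha1, Prosalpha5, Rpt4 and Rpn13 on the higher side and Prosbeta4, Rpn10 and Rpn2 on the lower side, the last 3 with the opposite sign under scaling to ribosomal protein genes. At Rpn13 (2R, 13958545 to 13960404, minus strand), a ubiquitin receptor of the base, the sum was 31265 and 39574 against 53462 and 45935, and it rose with a log2 fold change of 0.42 ± 0.09 (edgeR's adjusted p = 0.012). In it the target of the cathepsin gene CtsL1 rose from 8464 and 10210 to 25457 and 21507 counts, while that of AGO1 had 22801 and 29365 against 28005 and 24428. At Prosalpha5 the sum had a log2 fold change of 0.31 ± 0.06 (edgeR's adjusted p = 0.01), with the neighbour cnk, a scaffold of Ras signalling, at 0.44 ± 0.10 and Prosalpha5 itself at -0.06. The sum at Rpn2 fell by 0.43 ± 0.08 (edgeR's adjusted p = 0.0078), with Rpn2 itself at -0.03. Its neighbours all had lower counts in tumor. The target of eIF2D had 3591 and 3649 counts in control against 1408 and 2206 in tumor, and that of rdog 4823 and 4869 against 3631 and 2094. The histone mRNA-binding gene Slbp was listed at 955 and 1198 counts in control and at 0 in tumor. The sums at Rpn10 and Prosbeta4 fell by 0.29 ± 0.09 and 0.26 ± 0.06 (edgeR's adjusted p = 0.043 and 0.021). Under scaling to ribosomal protein genes the log2 fold changes at Rpn2, Rpn10 and Prosbeta4 were 0.21, 0.35 and 0.38. Without control 1 only the sum at Prosalpha1 was called, and without control 2 only that at Rpn2. Without tumor 1 the call at Prosalpha1R ended, and without tumor 2 those at Prosalpha1 and Rpn10.

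The division of counts between targets differed between the groups at several loci. Rpt5 held 30.9% and 29.0% of its locus sum in control and 45.8% and 50.1% in tumor, while the neighbouring Hrd3, a gene of protein degradation from the endoplasmic reticulum, went from 4632 and 5300 counts to 3114 and 2003. Rpt4 held 20.4% and 14.8% in control and 0.0701% and 2.34% in tumor, and there mldr rose from 362 and 946 to 2799 and 2598 counts. At these loci the own count of the subunit and the counts of a neighbour moved in opposite directions. Rpn1 held 43.2% and 44.5% against 57.0% and 54.3%, and Prosbeta1 33.8% and 36.8% against 50.4% and 49.3%. Both shares were higher in both tumor libraries. Rpn7 held 18.6% and 24.0% against 7.66% and 13.0%, lower in both. At the Rpn11 locus the neighbour qtc was listed at 2764 and 2850 counts in control and at 4 and 0 in tumor, while Nepl3 went from 6473 and 7291 to 10212 and 9887. The locus sum of Rpn11 was 9237 and 10141 in the controls against 10216 and 9894 in the tumors, a log2 fold change of -0.02 ± 0.08 (edgeR's adjusted p = 0.84). The part that the division of reads has in each single call was not tested.

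**Figure D3:**
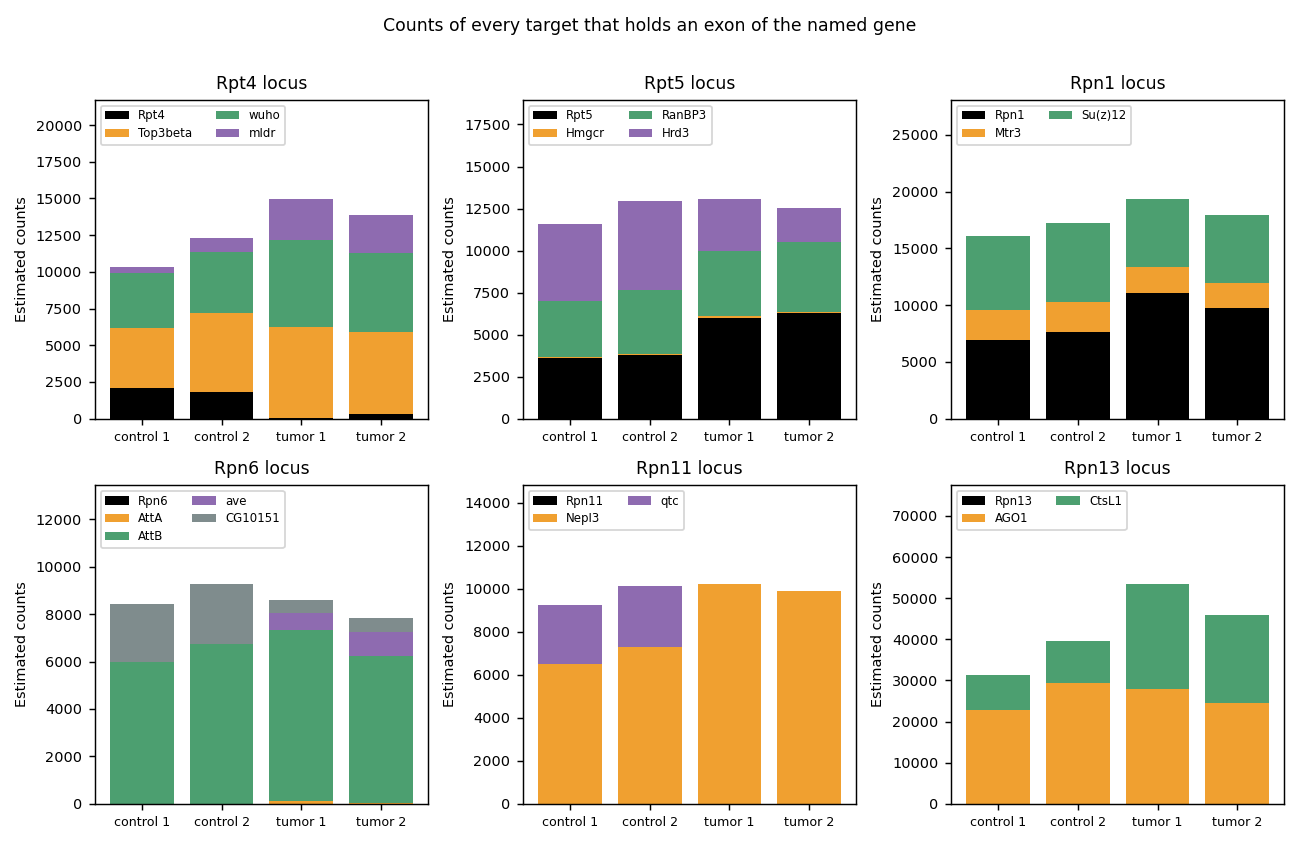
Estimated counts of all targets containing exons of Rpt4, Rpt5, Rpn1, Rpn6, Rpn11 or Rpn13, stacked per library, with the named gene in black. Rpt5 and Rpn1 take a larger part of their stack in tumor and Rpt4 a smaller one, and at Rpn6, Rpn11 and Rpn13 nearly all counts lie under neighbouring genes.

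**Figure D4:**
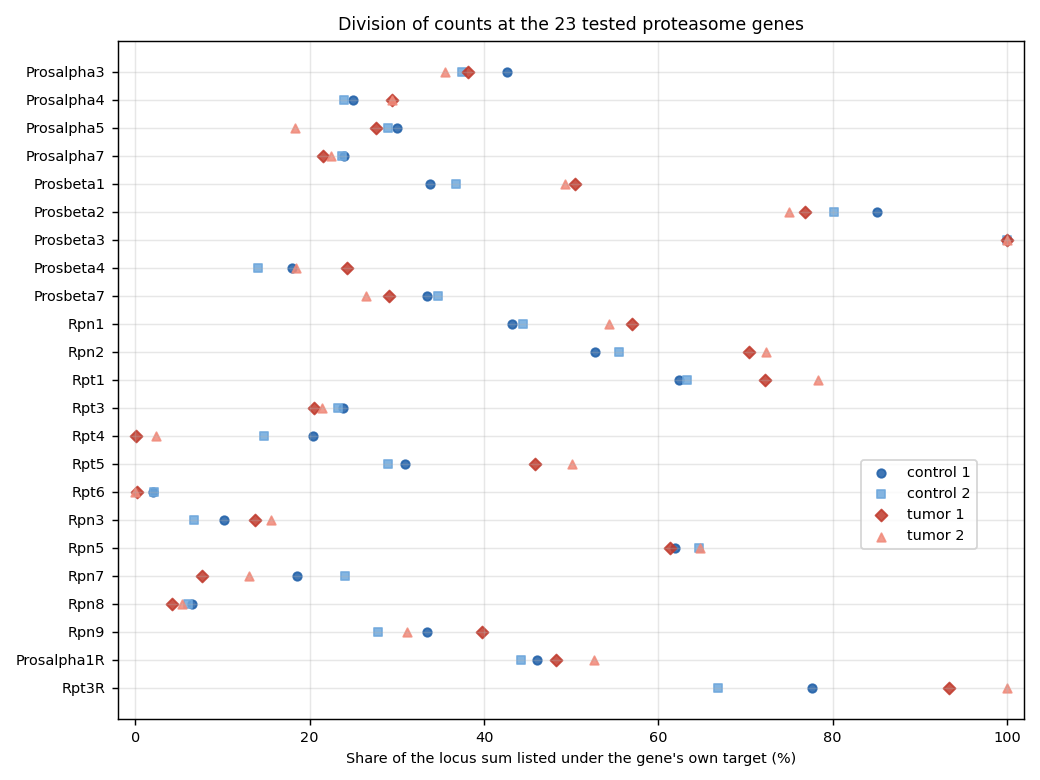
Share of the locus sum that is listed under the gene's own target, in percent, for the 23 tested members in each library. The shares run from 0 for Rpt6 in tumor 2 to 100% for Prosbeta3 in every library.

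Members that held at least 50% of their locus sum in every library were Prosbeta2, Prosbeta3, Rpn2, Rpn5, Rpt1 and Rpt3R, a set chosen after the values were seen. Their own log2 fold changes were -0.29, -0.15, -0.03, -0.05, 0.27 and 0.66. The first 5 are standard subunits, and with TMM scaling none of these passed the threshold by edgeR. Rpt1 was called higher by DESeq2 and by edgeR on library totals, Prosbeta2 lower by DESeq2 and by edgeR with upper-quartile factors, and Prosbeta3, Rpn2, Rpn5 and Rpt1 higher under scaling to ribosomal protein genes.

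Levels between genes can be compared only per length, and TPM divides here by the length of the whole target. Such levels hold only as far as the listing of reads goes, since 10 standard subunits are at 0 in it and no exon base of Prosbeta3 is outside other targets, whose genes CG31100, CG11980 and Iru were listed at 0. On that scale Prosbeta3 had the highest listed value, with 316 and 277 TPM in the controls against 310 and 323 in the tumors. Prosbeta2 (229 and 200 against 206 and 210), Rpn2 (212 and 200 against 230 and 247) and Rpn5 (171 and 161 against 171 and 209) followed in control. Prosbeta2 and Rpn2 overlapped in control and changed places in tumor, so their order is not resolved. Per kilobase of annotated exon, Prosbeta3 again had the highest listed value, with 269 and 239 CPM in control, and Rpn2, a long gene, stood at 76.1 and 72.8. Among standard subunits listed above 0 in all 4 libraries the lowest TPM in control was that of Rpn8, at 15.0 and 13.7. The summed TPM of the 32 standard subunits was 2360 and 2110 in the controls against 2600 and 2750 in the tumors. Tumor lay above control on this scale but not on the scale of effective library size, and the median log2 fold change of all tested genes was also higher on it, at 0.21 with a pseudocount of 1.

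The variant paralogs were mostly undetectable. Of the 16, 6 had a locus sum of 0 in every library, namely Prosalpha3T, Prosalpha4T2, Prosalpha6T, Prosbeta4R1, Prosbeta4R2 and Prosbeta5R1. A count of 0 allows up to 3 counts in a library of this depth, for counting error only. These zeros differ from those of the standard subunits, because no target that holds an exon of the paralog had any count. Prosalpha3T (3R, 31122527 to 31123415, minus strand) and Prosbeta5R1 (2R, 23308654 to 23309816, minus strand) have targets that hold all of their exon sequence alone. Prosbeta4R1 and Prosbeta4R2 lie 1467 bases apart on 2L and share targets only with each other and with silent neighbours, the odorant receptor gene Or23a among them.

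A further 5 paralogs had locus sums of at most 24 counts. Prosbeta5R2, with 59.9% of its exon sequence to itself, had 0 and 0 counts in the controls against 6 and 7 in the tumors, with locus sums of 2 and 0 against 9 and 16. Rpn12R had locus sums of 10 and 5 against 7 and 11, Prosbeta2R1 of 1 and 3 against 2 and 3, and Rpt4R of 1 and 1 against 1 and 0. Prosalpha4T1 was listed at 0, and the 18, 20, 24 and 21 counts of its locus sum lay under CG42322. Counts of this size do not resolve a difference between tumor and control. Of 14 testis marker genes 6 were listed at 0 in every library. The meiotic arrest genes can, nht and comr, whose targets hold all of their exon sequence alone, had at most 8 counts in any library, and aly had 27 and 48 in the controls against 1 and 0 in the tumors. The other testis markers with counts have overlapping targets. Among them mia had 548 and 582 counts against 717 and 794, topi 321 and 675 against 411 and 585, and ocn 1021 and 890 against 879 and 823, none of them past the threshold. The gene janB was called higher, from 0 in both controls to 61 and 403 counts (edgeR's adjusted p = 0.029), and aly lower (edgeR's adjusted p = 0.018). The call of janB ended without control 1, control 2 or tumor 2, as did that of aly, and the locus sum of janB was at -0.17 (edgeR's adjusted p = 0.27).

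Prosbeta2R2, Rpn13R and Rpt6R were listed at 0 inside loci with counts. The locus sum of Prosbeta2R2 lay almost wholly under cno, an adherens junction gene, with 8867 and 11745 counts in the controls against 13198 and 10511 in the tumors. That of Rpn13R was divided evenly between CG15465 and rg. The sum at Rpt6R was 767 and 904 against 1229 and 1255, with tumor above control and a log2 fold change of 0.50 ± 0.17 that missed the threshold (edgeR's adjusted p = 0.051). Most of it was CG9702, with 760 and 889 counts against 1161 and 1188.

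The paralogs whose own targets held enough counts to be tested were Rpt3R and Prosalpha1R. Rpt3R (3R, 9754735 to 9756510, minus strand) had 786 and 895 counts in the controls against 1322 and 1460 in the tumors, and both tumor libraries lay above both controls. Its log2 fold change was 0.66 ± 0.17 (edgeR's adjusted p = 0.037). None of its exon sequence lies outside other targets, and the neighbour Tti1 had 227 and 442 counts against 95 and 0. The locus sum was 1014 and 1338 against 1418 and 1460, a log2 fold change of 0.23 ± 0.16 (edgeR's adjusted p = 0.27).

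Prosalpha1R (2R, 7830413 to 7831771, minus strand) lies 1734 bases from Prosalpha1 (2R, 7827303 to 7828678, minus strand), on the same strand. From left to right both genes have exon stretches of 580, 177 and 100 bases, then one of 112 bases in Prosalpha1 and of 95 in Prosalpha1R, so reads may not separate the pair. Prosalpha1R was listed at 4033 and 4343 counts in the controls against 6173 and 5945 in the tumors, and Prosalpha1, the standard subunit, at 0 in every library. The target of Prosalpha1R also reaches over the first exon stretches of Prosalpha1, so its counts make up the whole locus sum of the standard gene. These counts rose in tumor with a log2 fold change of 0.46 ± 0.09 (edgeR's adjusted p = 0.02 as the count of Prosalpha1R and 0.0098 as the locus sum of Prosalpha1). Exon sequence of CG12822 and Atg10, and all exons of CG18853, also lie in the Prosalpha1R target. CG18853 was, like Prosalpha1, listed at 0 in every library. Which of these genes or of the pair the counts came from is not resolved.

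**Figure D5:**
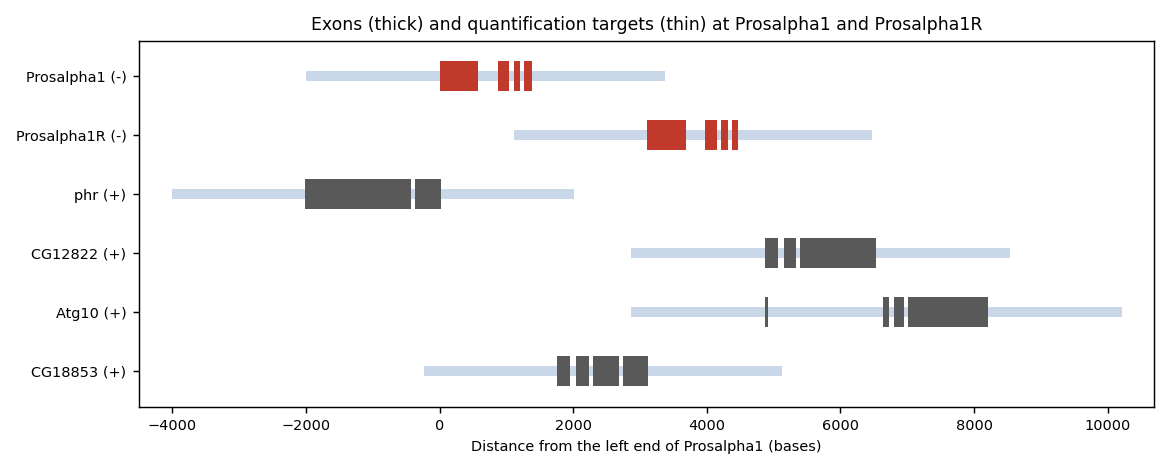
Exons (thick boxes) and quantification targets (thin bars) around Prosalpha1 and Prosalpha1R, plotted by distance in bases from the left end of Prosalpha1, with the strand of each gene in parentheses. The exon pattern of 580, 177 and 100 bases recurs in both genes, and their targets overlap.

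Genes that work with the proteasome were called at about the rate of all genes. Of 16 matched genes for assembly, activation, deubiquitination and ubiquitin supply, 13 were tested in own counts, and 3 rose and 3 fell, where 23.4% and 21.2% of all tested genes did. Their median log2 fold change was 0.18. PI31, a proteasome regulator, rose from 2331 and 2971 counts to 4141 and 3998 (0.55 ± 0.09, edgeR's adjusted p = 0.012), with a locus sum at 0.22. Pngl, the glycanase that processes the transcription factor behind proteasome induction in other animals, rose by 0.50 ± 0.11 and rngo, a Ddi1-type protease and ubiquitin receptor gene, by 0.33 ± 0.08. REG, the proteasome activator of the nucleus, fell, with 11369 and 13426 counts against 10630 and 10073 and a log2 fold change of -0.33 ± 0.07 (edgeR's adjusted p = 0.027), with a locus sum at -0.38. Sem1, the small lid subunit whose symbol lies outside the rule, fell by 0.49 ± 0.11 and Npl4, a cofactor of the segregase TER94, by 0.27 ± 0.08. REG, Sem1 and Npl4 had log2 fold changes of 0.31, 0.15 and 0.36 under scaling to ribosomal protein genes. The locus sums of rngo and Npl4 went the other way, at -0.51 and 0.51. The calls of REG, Npl4, rngo and Pngl ended without any one of the 4 libraries, that of Sem1 without control 1, tumor 1 or tumor 2, and that of PI31 without control 1 or tumor 2.

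Genes that supply ubiquitin differed in direction. Uba1, the ubiquitin-activating enzyme, whose target holds all of its exon sequence alone, had 24860 and 29596 counts in the controls against 28945 and 25777 in the tumors. On CPM both tumor libraries lay below both controls, but the log2 fold change of -0.06 ± 0.08 missed the threshold (edgeR's adjusted p = 0.56). The polyubiquitin gene Ubi-p63E was at 0.36 ± 0.10 (edgeR's adjusted p = 0.052) and the assembly chaperone gene Pomp at 0.02 ± 0.11. In own counts RpL40 had 26747 and 28583 in the controls against 32001 and 31340 in the tumors. Its log2 fold change was 0.12 ± 0.10 (edgeR's adjusted p = 0.39), opposite in sign to that of its locus sum. Ubi-p5E and RpS27A, which encode ubiquitin, and Uch-L5, a deubiquitinase of the proteasome, were listed at 0 in every library. In locus sums, Ubi-p63E rose by 0.46 ± 0.11 and Ubi-p5E by 0.31 ± 0.09 (edgeR's adjusted p = 0.016 and 0.03). The locus sums of RpS27A and RpL40, whose products join ubiquitin to a ribosomal protein, fell by 0.71 ± 0.08 and 0.54 ± 0.10 (edgeR's adjusted p = 0.0015 and 0.007). That of Uch-L5 fell by 0.81 ± 0.06 (edgeR's adjusted p = 0.00068). The calls at Ubi-p63E and RpL40 ended without control 1 or control 2, and that at Ubi-p5E also without tumor 1. Ubiquitin genes share near-identical repeats, so reads between them are uncertain. These sums also hold the reads of neighbouring genes, and that of RpL40 had a log2 fold change of 0.10 under scaling to ribosomal protein genes.

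The transcription factor cnc, a relative of the mammalian Nrf factors that drive proteasome and oxidative stress genes, did not differ past the threshold. It had 11206 and 14492 counts in the controls against 13904 and 11450 in the tumors (-0.09 ± 0.10, edgeR's adjusted p = 0.52), and 68.6% of its exon sequence lies outside other targets. Of 9 genes on the list of cnc, its partners and oxidative stress targets, 4 rose and 1 fell, with a median of 0.90. Over all tested genes 23.4% rose and 21.2% fell. In locus sums 6 of the 9 rose and 2 fell, where 27.9% and 27.4% of all did. Trxr1, for thioredoxin reductase, rose from 9473 and 10355 to 29016 and 31591 (1.54 ± 0.12, edgeR's adjusted p = 0.0028), with a locus sum at 0.79. The selective autophagy receptor gene ref(2)P rose from 3887 and 5437 to 13346 and 10865 (1.31 ± 0.12, edgeR's adjusted p = 0.0038), with a locus sum at 1.44. GstD1 rose by 2.37 ± 0.23 and Gclc by 0.90 ± 0.19, with locus sums at 0.93 and 0.23, and the Gclc call ended without control 1, tumor 1 or tumor 2. GstD2 fell by 2.13 ± 0.21, while its locus sum, which includes neighbouring glutathione transferase genes, rose by 2.67.

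Markers of several cell types differed between the genotypes. Of 9 matched germline markers 8 were tested in own counts and all 8 fell, where 21.2% of all tested genes did. Their summed level was 852 and 849 CPM in control and 95.7 and 99.9 in tumor. The median log2 fold change was -5.31 in own counts and -0.87 in locus sums. Of the 9 locus sums 8 fell, where 27.4% of all did, and that of grk was at 0.03. Of 9 blood cell markers 7 rose, where 23.4% of all tested genes did. The 9 together summed to 373 and 287 CPM in control and to 715 and 950 in tumor. The others, srp and crq, were at -1.28 ± 0.38 and -0.06 ± 0.14 (edgeR's adjusted p = 0.054 and 0.73). Their locus sums were called lower, at -1.37 ± 0.37 and -0.34 ± 0.09 (edgeR's adjusted p = 0.027 and 0.03). Ribosomal protein scaling put these sums at -0.76 and 0.30. The 6 follicle cell markers, which define the labelled tissue, summed to 1220 and 1470 in the controls against 1600 and 1870 in the tumors, with 3 higher and 1, tj itself, lower, and 3 of 7 tested muscle markers fell, from 361 and 658 to 270 and 189. None of the follicle, blood or muscle markers was listed at 0 in every library, and 1 germline marker, cup, was. In such bulk samples fewer cells of a type and less RNA per cell cannot be told apart. Whether the fall of germline markers bears on the proteasome values was not tested.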

How the data were processed

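All 4 libraries of ovarian RNA were used, with group and replicate taken from the sample titles. Reads were quantified with kallisto, per the submitters' processing notes; which version, build, gene models or strandedness it ran with is not stated in what was used here. The authors' deposited files give, per the file headers, target length, effective length, estimated counts and TPM for 17773 genes, of which 17668 matched a symbol and the Ensembl release 115 annotation of BDGP6.54, the source of all coordinates. The values of target length in bases were compared with this annotation. Deposited estimated counts were not normalized, and deposited TPM values divide them by effective target length.

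Estimated counts were rounded and tested over all genes in R 4.3.3 with edgeR 4.0.16 (filterByExpr, TMM, glmQLFit, glmQLFTest on group, two-sided, Benjamini-Hochberg adjustment, threshold 0.05). The biological coefficient of variation was 0.36. Locus sums used the same library sizes and factors. With totals above 41248098 counts, the spread between replicates rather than counting error limits precision, and p-values measure only the spread between these libraries. Alternatives used DESeq2 1.42.0 and limma 3.58.1, with pseudocounts of 0.1, 1 and 5 on TPM, and figures Python 3.11.15 with matplotlib 3.10.9. Named genes were all called members, all variant paralogs, the highest, middle and lowest member of each class, and called or extreme genes of the fixed lists. Neighbouring genes, other genes of the lists (Uba1, Ubi-p63E, Pomp, cnc) and the loci shown in detail were chosen after their values were seen. Members, lists and the locus sum were chosen with earlier results of these data known. Ecm29, nos and don had no matching symbol and were not analysed here, and promoter motifs were not searched. No set test was run.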

Additional observations from a re-analysis of the deposited data

How the results depend on the processing

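Overlapping targets limit the single-gene values, and the variant paralogs with locus sums of at most 24 counts do not resolve a change. Control and tumor also differ in stage, dissection and the levels of cell type markers, which cannot be told apart from the genotype. Locus sums were chosen as an alternative after the data were seen. In leave-one-out fits the lone library of a group is assumed to vary like the other group.

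The number of all genes higher in tumor was 2202 and that of all genes lower in tumor 1989. Scaling to ribosomal protein genes gave 4414 and 920, locus sums gave 4099 and 4021, leaving out 1 library gave 1095 to 1495 and 760 to 1507, and the replicate block gave 1305 lower. Of the members, 6 were higher. The count was 4 with upper-quartile factors and 4 without a filter (both without Prosalpha4 and Rpt3R), 18 under ribosomal protein scaling, 3 with the replicate block (Prosbeta1, Rpn1 and Rpt5) and 0 to 1 with 1 library left out. Members called lower numbered 0 by edgeR, 1 with upper-quartile factors, 3 by DESeq2, 3 by limma-voom, 1, 1 and 2 on TPM with pseudocounts of 1, 0.1 and 5, 3 as locus sums and 0 to 3 with 1 library left out. For locus sums, 5 members were higher, against 3 with upper-quartile factors, 36 under ribosomal protein scaling and 0 to 4 with 1 library left out. The 3 lower ones became 9 with upper-quartile factors, 1 on library totals, 0 under ribosomal protein scaling and 0 to 3 with 1 library left out. Libraries with the same number did not deviate together (correlation -0.0147). With 2 libraries per group this is a single value, which cannot show whether the libraries were paired.

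Median log2 fold changes moved with the scaling. Ribosomal protein scaling gave 0.55 for the alpha rings, 0.52 for the beta rings, 0.61 for the base, 0.59 for the lid, 1.2 for the variants, 0.59 for all members and 0.66 for their locus sums. Upper-quartile factors gave -0.22 (beta rings), -0.14 (base), -0.16 (lid), -0.16 (all members) and -0.09 (locus sums). Library totals gave 0.07 (base), 0.05 (all members) and 0.12 (locus sums). TPM with pseudocounts of 1, 0.1 and 5 gave 0.15, 0.15 and 0.14 for the alpha rings, 0.13 each for the beta rings and 0.21 each for the base. It gave 0.19, 0.19 and 0.18 for the lid and for all members, and 0.78, 0.8 and 0.72 for the variants. No filter gave 0.06 (lid), 3.7 (variants) and 0.15 (all members). Locus sums gave 0.07 (base), 0.17 (variants) and 0.02 (all members). Leaving out 1 library gave ranges of -0.24 to 0.03 (alpha rings), -0.18 to 0.00 (beta rings), -0.06 to 0.01 (base), -0.15 to 0.02 (lid), 0.48 to 0.62 (variants), -0.09 to 0.00 (all members) and -0.03 to 0.07 (locus sums).

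Over all single genes and alternatives, direction and side of the threshold were kept in 1226 comparisons, the call was lost in 140 and gained in 87, and the sign changed in 141. Under ribosomal protein scaling the own log2 fold changes that changed sign were Prosalpha3 0.38, Prosalpha5 0.57, Prosalpha7 0.53, Prosbeta2 0.35, Prosbeta3 0.49, Prosbeta7 0.52, Rpn2 0.61, Rpn5 0.59, Rpn8 0.27, Rpt3 0.58, REG 0.31, Sem1 0.15, Uba1 0.57, Npl4 0.36, cnc 0.55 and Keap1 0.25. Among locus sums they were Prosalpha3 0.50, Prosalpha6 0.55, Prosbeta1 0.60, Prosbeta2 0.47, Prosbeta3 0.49, Prosbeta4 0.38, Prosbeta6 0.48, Rpn10 0.35, Rpn11 0.62, Rpn12 0.43, Rpn13R 0.59, Rpn2 0.21, Rpn3 0.53, Rpn5 0.59, Rpn6 0.45, Rpn9 0.62, Rpt5 0.62, REG 0.26, Sem1 0.39, Uba1 0.57, RpL40 0.10, rngo 0.13, cnc 0.63, maf-S 0.43 and Keap1 0.31. Going from own counts to locus sums changed the sign of Prosalpha5 (0.31), Prosalpha7 (0.01), Prosbeta1 (-0.03), Prosbeta4 (-0.26), Prosbeta7 (0.18), Rpn3 (-0.11), Rpn7 (0.06), Rpn8 (0.02), Rpn9 (-0.02), Rpt3 (0.10), Rpt4 (0.29), Rpt5 (-0.01), Rpt6 (0.05), RpL40 (-0.54), Npl4 (0.51), rngo (-0.51), maf-S (-0.21) and GstD2 (2.67).

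With upper-quartile factors Pomp was at -0.09, and the locus sums that changed sign were Prosalpha2 -0.09, Prosalpha7 -0.10, Prosbeta5 -0.03, Rpn1 -0.02, Rpn7 -0.05, Rpn8 -0.09, Rpt1 -0.10, Rpt2 0.00, Rpt3 -0.01 and Rpt6 -0.06. DESeq2 size factors put the locus sums of Prosalpha7 and Rpt1 at -0.01 each. On library totals own values changed sign for Prosalpha5 0.04, Rpn2 0.07, Rpn5 0.05, Rpt3 0.04, Uba1 0.03 and cnc 0.01, and locus sums for Prosalpha6 0.01, Prosbeta1 0.07, Rpn11 0.08, Rpn13R 0.05, Rpn5 0.05, Rpn9 0.08, Rpt5 0.08, Uba1 0.03 and cnc 0.10. On TPM with pseudocounts of 1, 0.1 and 5 the values were 0.16, 0.16 and 0.15 for Prosalpha5, 0.14, 0.14 and 0.13 for Prosalpha7, 0.10, 0.10 and 0.09 for Prosbeta3, 0.13 each for Prosbeta7, 0.21 each for Rpn2, 0.19, 0.19 and 0.18 for Rpn5, 0.18, 0.18 and 0.17 for Rpt3, 0.18 each for Uba1 and 0.15, 0.16 and 0.14 for cnc. With 1 library left out, own values that crossed 0 ran from -0.37 to 0.20 for Prosalpha5, -0.05 to 0.35 for Prosbeta4, -0.15 to 0.02 for Rpn5, -0.16 to 0.01 for Rpt3, -0.10 to 0.14 for Pomp and -0.19 to 0.00 for cnc. Locus sums that crossed 0 ran from -0.04 to 0.07 for Prosalpha2, -0.04 to 0.04 for Prosalpha7, 0.00 to 0.18 for Rpn1, -0.09 to 0.05 for Rpn11, -0.36 to 0.90 for Rpn12R, -0.23 to 0.09 for Rpn13R, -0.12 to 0.01 for Rpn5, -0.03 to 0.14 for Rpn7, 0.00 to 0.03 for Rpn8, -0.12 to 0.06 for Rpn9, -0.07 to 0.09 for Rpt1, -0.07 to 0.04 for Rpt5, -0.03 to 0.13 for Rpt6 and -0.11 to 0.09 for cnc. The cause was not tested.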
